A study of Mus musculus with 2 samples.

Results

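The genes Rara and Rxra encode the retinoic acid receptor alpha and the retinoid X receptor alpha, which bind DNA together as a heterodimer. Their 5-hydroxymethylcytosine (5hmC) was measured in mouse kidney over 2 gene windows on the mouse build mm9. Rara was taken as chromosome 11, 98789001 to 98836500 (47.5 kb), and Rxra as chromosome 2, 27531501 to 27618500 (87 kb). The Rara window was chosen by the score of a peak inside it, and Rxra was added as a partner receptor with results of these data in view. Enrichment in either window is therefore a description and supports nothing further. Of the 92654 peaks that the authors listed, 40 had their midpoint in these windows, 16 in Rara and 24 in Rxra.

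Kidney DNA from male C57BL/6 mice at 6 weeks of age was compared as 1 library pulled down with a 5hmC antibody (hydroxymethylated DNA immunoprecipitation, hMeDIP) and 1 input library without antibody. The number of animals is not stated, whole kidney mixes many cell types, and neither library has a replicate. Depth was 11424027 fragments for hMeDIP and 8316507 for input, with a median of 6 and 7 fragments in an autosomal 2 kb step. A ratio here divides a region's share of all hMeDIP fragments by its share of all input fragments, so that 1 means equal shares. Ratios carry an exact 95% interval that covers counting error only. With 1 library each for hMeDIP and input, variation among animals or libraries is not in it. PCR copies also cannot be told from separate molecules without molecular identifiers. The kidney label was not checked against marker genes, since no mm9 annotation was used.

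RAR alpha is a nuclear receptor that turns on target genes when it binds all-trans retinoic acid, the active form of vitamin A. RXR alpha is a partner with which it forms a heterodimer, and also pairs with the vitamin D, thyroid hormone, PPAR and LXR receptors. In the developing kidney, retinoic acid signalling supports branching of the ureteric bud. The mark 5hmC is made from 5-methylcytosine by TET enzymes, mostly at CpG sites, and is commonly found over the bodies of active genes.

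RefSeq lists 4 transcription starts for Rara and 2 for Rxra on the build GRCm38.p6, all on the plus strand. The 5′ side of each window is therefore its lower coordinate. The 250 bases before 4 of these starts are shown because the starts differ in CpG content, the substrate of the mark, with each CpG in capitals. They are GRCm38.p6 sequence and were not placed on mm9. The coordinates are chr11:98937446-98937695 and chr11:98964622-98964871 for starts 1 and 4 of Rara, and chr2:27676951-27677200 and chr2:27709042-27709291 for starts 1 and 2 of Rxra.
Rara start 1: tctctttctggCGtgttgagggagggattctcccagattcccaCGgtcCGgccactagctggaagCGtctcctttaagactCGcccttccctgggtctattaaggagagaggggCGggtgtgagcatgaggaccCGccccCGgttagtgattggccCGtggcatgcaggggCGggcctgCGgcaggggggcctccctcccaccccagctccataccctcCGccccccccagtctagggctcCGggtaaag
Rara start 4: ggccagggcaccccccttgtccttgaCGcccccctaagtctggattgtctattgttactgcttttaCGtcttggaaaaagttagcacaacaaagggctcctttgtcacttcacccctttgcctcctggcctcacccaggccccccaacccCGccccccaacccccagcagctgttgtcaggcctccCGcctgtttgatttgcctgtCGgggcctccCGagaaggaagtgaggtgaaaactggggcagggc
Rxra start 1: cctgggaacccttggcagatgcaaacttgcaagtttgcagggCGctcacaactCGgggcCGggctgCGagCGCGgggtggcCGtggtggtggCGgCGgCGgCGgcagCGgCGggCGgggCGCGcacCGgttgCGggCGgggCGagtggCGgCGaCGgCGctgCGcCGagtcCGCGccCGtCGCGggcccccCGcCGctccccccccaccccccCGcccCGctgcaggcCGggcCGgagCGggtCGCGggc
Rxra start 2: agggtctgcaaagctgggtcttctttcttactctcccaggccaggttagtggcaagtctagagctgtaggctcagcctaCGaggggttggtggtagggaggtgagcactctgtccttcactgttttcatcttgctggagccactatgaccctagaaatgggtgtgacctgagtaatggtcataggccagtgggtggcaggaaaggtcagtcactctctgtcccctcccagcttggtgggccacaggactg

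The first Rxra start was the most CpG-rich of these, with 40 CpG and 81.2% G or C in its 250 bases. Only 1.31% of the 32851 listed mouse promoters had as many, against a median of 6. The second Rxra start, 32.1 kb further on, held 1 CpG. Rara start 1 held 13 CpG, a count that 31.5% of promoters reached, and start 4, 27.2 kb further on, held 6. Of the Rara starts not shown, start 2 held 13 CpG and start 3 held 2, a count that 81.2% of promoters reached. A form of the receptors' half-site, AGGTCA, searched on both strands, matched 2 times before the second Rxra start. It had no match in the 250 bases before the other 5 starts, while 14.0% of all listed promoters of that length held it. Other forms of the half-site were not searched, and a match or its absence is only a description of these letters.

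Rara carried 5hmC over most of its length. With 1191 hMeDIP against 126 input fragments, the window's ratio was 6.88 (5.72 to 8.34). Rxra held 1692 and 365 fragments, a ratio of 3.37 (3.01 to 3.79). Rara thus stood 2.04-fold (1.64 to 2.55) above Rxra in these libraries. Both were above their chromosomes, which stood at 1.23 for chromosome 11 and 1.01 for chromosome 2. Input density was lower in Rara, at 2.65 fragments per kb against 3.48 over its chromosome, and 4.2 in Rxra against 3.41; the part of input density in the ratios was not tested. The hMeDIP density of Rara alone was 25.1 per kb and that of Rxra 19.4, where autosomes averaged 4.55.

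Autosomes 1 to 19 were cut end to end into windows of the same size as a background, including those that overlap the genes. A ratio of at least 2 with an interval above 1 was reached by 11% of the 48599 Rara-sized windows and by 10.4% of the 26850 Rxra-sized ones. Only 5 windows (0.0103%) had a ratio as high as that of Rara, the highest being 8.10. For Rxra, 367 windows (1.37%) were as high. Peaks covered 70.5% of Rara and 56.2% of Rxra, against medians of 0% and 0.895% over windows of these sizes. Coverage as high as that of Rara was seen in 0.191% of windows, and as high as that of Rxra in 0.499%.

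The peaks were called on the same hMeDIP library, so leaving them out lowers both genes by construction. In the 14.0 kb of Rara without a peak the ratio was 1.83 (1.25 to 2.72), and in the 38.1 kb of Rxra it was 1.48 (1.23 to 1.80). Their quotient was 1.23 (0.801 to 1.92), an interval that includes 1. Inside peaks the ratios were 9.15 (7.35 to 11.5) and 4.90 (4.22 to 5.71).

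In steps of 2 kb, 5hmC ran almost without a break through Rara. A step was called high when its ratio, after adding 1 fragment to each library, was at least 2 and its interval, taken without that addition, lay above 1. In Rara 21 of 24 steps were high, where 10.6% of all autosomal steps were. No step was low (a ratio of at most 0.5 with an interval below 1), against 15.1% of autosomal steps. The 3 steps that were not high all lay near the 5′ end. The step at the window start had a ratio of 1.87 (0.776 to 6.39), that at 8 to 10 kb 2.18 (0.877 to 8.58) and that at 10 to 12 kb 1.98 (0.830 to 6.72). These intervals include 1, so a lack of 5hmC there was not shown.

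**Figure D1:**
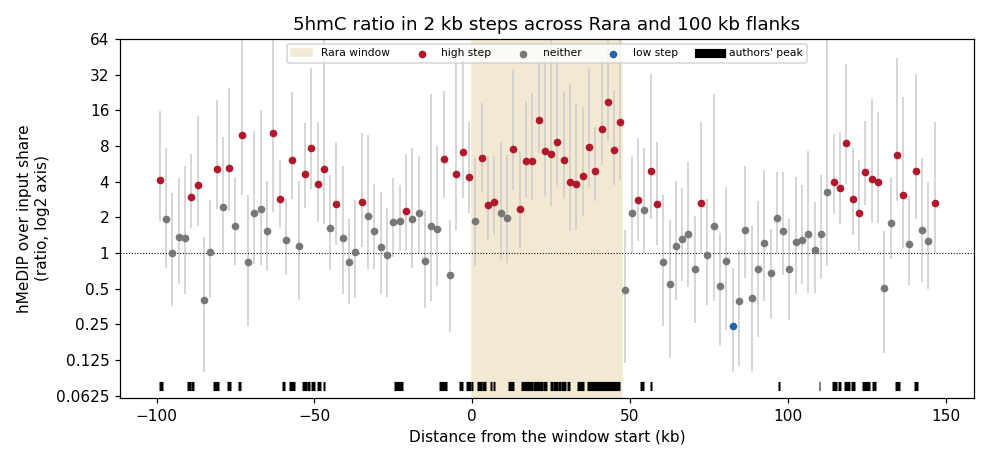
Ratio of hMeDIP to input share (log2 axis) in 2 kb steps against distance from the Rara window start in kb. Grey lines are 95% counting intervals cut at 0.1 and 64, and black bars are the authors' peaks. In the shaded window 21 of 24 steps are high, and the step just after it falls to 0.485.

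The highest Rara steps lay in a pair of places, the middle and the 3′ end. The step at 42 to 44 kb counted 127 hMeDIP against 4 input fragments and reached 18.6 (8.81 to 86.1). The step at 20 to 22 kb held 126 and 6 fragments, a ratio of 13.2 (6.83 to 42.4). The last step, only 1.5 kb long, held 34 fragments against 1 and reached 12.7 (4.15 to 1006). With so few input fragments the order among these steps is not resolved.

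In Rxra 32 of 44 steps were high and 0 were low. At a ratio of at least 4, which 3.44% of autosomal steps reached, the count was 13 of 44, and in Rara it was 17 of 24. Its highest steps were the last, 1 kb long, at 12.7 (34 fragments against 1), that at 12 to 14 kb at 10.2 (4.33 to 66.7), and those at 62 to 64 kb and 72 to 74 kb, both at 8.01 (3.62 to 37.4). The lowest were 56 to 58 kb at 0.655 (0.217 to 1.89), 34 to 36 kb at 1.04 (0.347 to 3.73) and 26 to 28 kb at 1.40 (0.722 to 3.09).

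The start of Rxra could hardly be read. Its first 2 kb held 2 hMeDIP and 0 input fragments, so the ratio is not measured there. The first 4 kb held 18 and 7 fragments, a ratio of 1.87 (0.746 to 5.30), and peaks covered 1% of it. Over the first 4 kb of Rara there were 85 and 13 fragments, a ratio of 4.76 (2.64 to 9.30), with 70.2% in peaks. Input density in the first 4 kb of Rxra was 1.75 per kb, against 4.2 over the window. Whether base composition lowered recovery there was not tested.

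**Figure D2:**
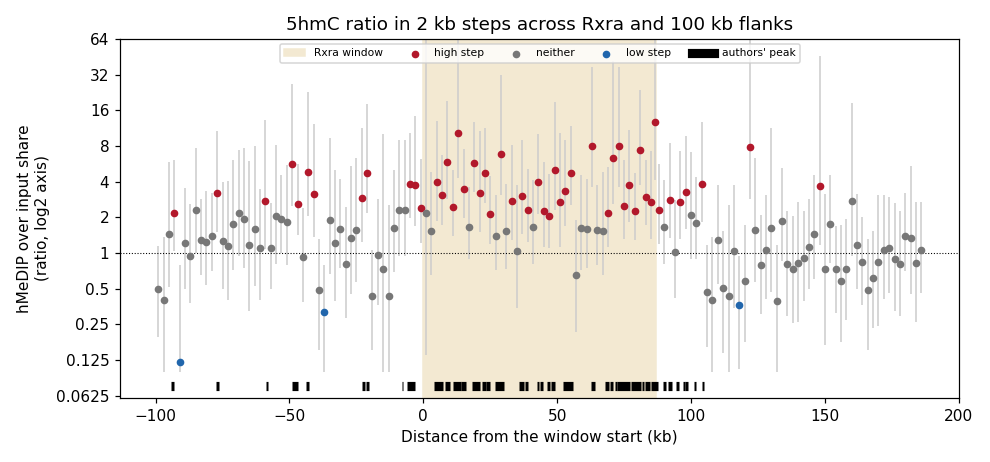
Ratio of hMeDIP to input share (log2 axis) in 2 kb steps against distance from the Rxra window start in kb, drawn as for Rara. In the shaded window 32 of 44 steps are high, from 0.655 to 12.7, and beyond the first 20 kb downstream no authors' peak is seen.

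Over all fragments the 3′ side of Rara had a higher ratio than the 5′ side. Cut at the middle, the 5′ side counted 537 hMeDIP against 74 input fragments and stood at 5.28 (4.14 to 6.83). The 3′ side counted 654 and 52 and stood at 9.16 (6.90 to 12.4). The quotient was 1.73 (1.18 to 2.57). On the 5′ and 3′ sides hMeDIP density was 22.6 and 27.5 per kb, and input density 3.12 and 2.19. The part of the lower 3′ input in the quotient was not tested. The peak whose score led to the choice of Rara lies on the 3′ side, so the difference in ratio is a description. Without that peak the quotient was 1.29 (0.777 to 2.22), and outside all peaks it was 3.48 (1.27 to 11.1), from 6 input fragments on the 3′ side there and 33 outside peaks on the 5′ side. In minus strand fragments it was 1.15 (0.666 to 1.97) and in plus strand fragments 2.74 (1.52 to 5.07). The last of 3 equal parts stood 2.66-fold (1.69 to 4.23) above the first. A difference of at least 1.5-fold between the sides is common, seen in 34% of autosomal windows of this size.

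Rxra showed no such slope. Its sides stood at 3.30 (2.82 to 3.89) and 3.45 (2.93 to 4.08), a quotient of 1.04 (0.828 to 1.32). A 1.5-fold difference, found in 27.2% of windows of its size, lies outside that interval. Peaks numbered 11 on its 5′ side and 13 on its 3′ side, and in Rara 9 and 7. High steps were 15 of 22 and 17 of 22 in Rxra, and 9 of 12 and 12 of 12 in Rara.

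Cut into 5 equal parts, Rara was uneven. From 5′ to 3′ the ratios were 3.64 (2.52 to 5.39), 4.37 (2.94 to 6.72), 12.1 (7.32 to 21.5), 6.59 (4.14 to 11.0) and 11.1 (7.43 to 17.1). The last of these lies almost wholly in the peak that led to the choice of the gene, and peaks covered 92.4% of it. In Rxra the same parts gave 3.90 (2.98 to 5.16), 3.25 (2.57 to 4.17), 2.82 (2.17 to 3.70), 2.80 (2.15 to 3.69) and 4.18 (3.24 to 5.46). Each of these intervals overlaps every other.

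**Figure D3:**
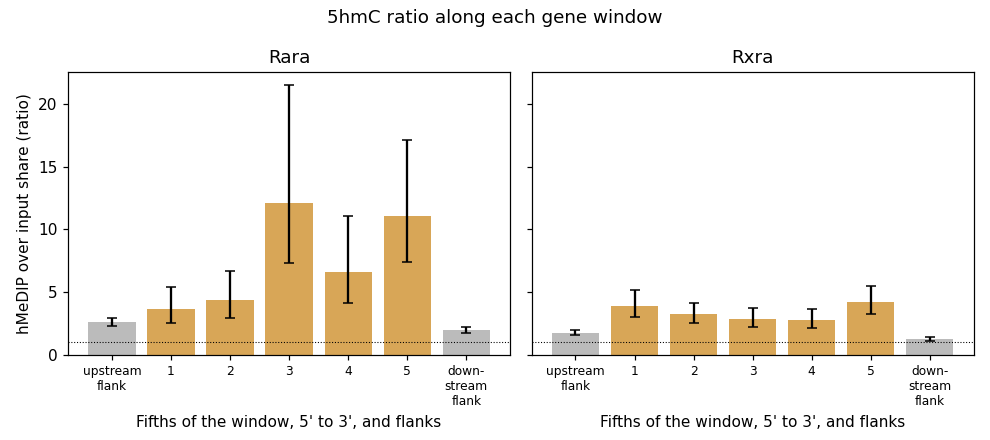
Ratio of hMeDIP to input share in 5 equal parts of each window from 5′ to 3′ (gold) and in the 100 kb flanks (grey), with 95% counting intervals. Rara runs from 3.64 to 12.1 across its parts and Rxra only from 2.80 to 4.18.

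The peak that led to the choice of Rara spanned 98825309 to 98835776 (10468 bp), close to the 3′ end of the window. Its score, 2675.62 in the authors' list, was the fifth highest. The next in that list, on chromosome 4 from 149365359 to 149376718, scored 2652.93. The Rara peak counted 438 hMeDIP against 29 input fragments, for a ratio of 11.0 (7.55 to 16.6). The next had 480 and 41, a ratio of 8.52 (6.19 to 12.0). Without this peak the Rara window still stood at 5.65 (4.57 to 7.06).

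Inside the broad peak the fragments were not spread evenly. In 20 bins of 500 bp the hMeDIP count ran from 7 to 50 with a median of 17.5, while the input ran from 0 to 5. The fullest bin lay 4 kb into the peak, at 98829309 to 98829808, with 50 hMeDIP and 0 input fragments. A second block of 3 bins from 6.5 kb held 39, 38 and 39. The last bin inside the 3′ edge held 21 hMeDIP fragments and the bin across the edge 12. The bins after it held 5, 4, 0, 0, 4 and 1. Without the bin across the edge, the 12 bins within about 3 kb on either side of the peak held 0 to 13 hMeDIP fragments, with a median of 4.5. Some of the upstream bins lie in another listed peak, 98822102 to 98824357.

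The other Rara peaks were shorter. The second by score, 1042.87, spanned 98808254 to 98811281 (3028 bp) with 151 and 7 fragments, a ratio of 15.7 (7.44 to 39.7). Only 0.206% of all peaks scored higher. The third spanned 98800195 to 98802269 and scored 316.07, at a ratio of 11.3 (4.19 to 42.7). The peaks were called on this same hMeDIP library, so ratios above 1 in them follow largely from the calling. All 16 peaks had an interval above 1, and the 14 with input fragments had ratios from 4.73 up. The share of all listed peaks with such an interval was not counted. Scores in Rara ran from 50.12 to 2675.62 with a median of 144.78, above the list's median of 85.72.

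Rxra had no peak of that rank. Its highest score, 427.53, belonged to 27549568 to 27552653 (3086 bp), with 116 and 12 fragments and a ratio of 7.04 (3.88 to 14.0). In that peak 51 of the hMeDIP fragments fell into a single 500 bp bin, 1 kb from its start, as many as in the fullest bin of Rara (50). Next came 27583556 to 27587216, scoring 349.74 at a ratio of 4.95 (2.86 to 9.17), and 27603991 to 27608605, the widest at 4615 bp, scoring 349.34 at 4.14 (2.53 to 7.14). The 24 peaks had ratios from 3.02 to 12.6, and all intervals lay above 1, which as in Rara follows largely from the calling. Their median score of 144.02 was close to that of Rara.

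**Figure D4:**
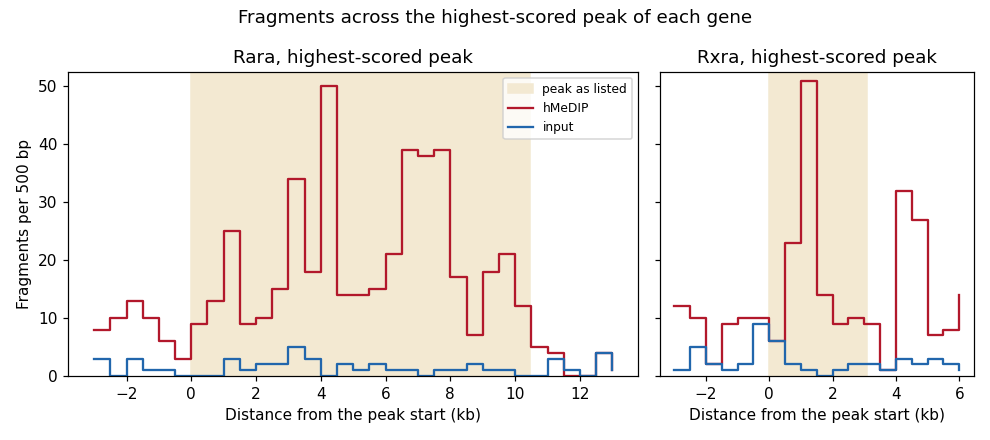
Fragments per 500 bp against distance from the start of the highest-scored peak in kb, for hMeDIP (red) and input (blue); the peak is shaded. The Rara peak holds several blocks of up to 50 hMeDIP fragments over 10.5 kb, the Rxra peak a single bin of 51, and the input stays at or below 9.

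Peaks stood close together in both genes. In Rara 11 of 15 gaps between neighbouring peaks were under 1 kb and 4 were under 100 bp. In Rxra the counts were 14 and 4 of 23. Over the whole list 26.2% of gaps were under 1 kb and 5.09% under 100 bp. The longest stretch without a peak was 3.93 kb in Rara, 98796268 to 98800194, at a ratio of 1.51 (0.754 to 3.19). In Rxra it was 6.84 kb, 27587217 to 27594057, at 1.36 (0.848 to 2.21).

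The flanks of 100 kb were lower than the genes on every side. By the order of genes on GRCm38.p6, Rapgefl1, Wipf2 and Cdc6 precede Rara, and the upstream flank stood at 2.58 (2.28 to 2.92). The downstream flank, towards Gjd3, Top2a and Igfbp4, stood at 1.97 (1.74 to 2.24). The window was 3.03-fold (2.47 to 3.74) above both together, and 7.33% of autosomal windows of this size reached 1.5-fold. A quotient as high was seen in 0.0638% of them. High steps numbered 20 and 16 of 50 upstream and downstream, and 0 and 1 were low.

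Rxra rose 2.24-fold (1.94 to 2.59) above its flanks, where 6.38% of windows reached 1.5-fold and 0.548% its value. The upstream flank, on the side of Wdr5, stood at 1.77 (1.57 to 2.01) and the downstream flank, on the side of Col5a1, at 1.28 (1.13 to 1.45). Of 50 steps each, 12 upstream and 7 downstream were high, and 2 and 1 were low. Outside peaks the contrast was smaller. Rxra was then 1.25-fold (1.01 to 1.56) above its flanks and Rara 1.22-fold (0.821 to 1.84).

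At the 3′ border the Rara signal ended with the peak that led to the choice of the gene, so the step down there is a description of that peak. The last 10 kb of the window, 92.8% in peaks, stood at 10.4 (7.15 to 15.8) and the next 10 kb at 2.45 (1.62 to 3.82), a quotient of 4.25 (2.34 to 7.69). The 2 kb directly after the window counted 5 hMeDIP against 8 input fragments and stood at 0.485 (0.117 to 1.58). At the 5′ border the first 10 kb of Rara stood at 3.46 (2.42 to 5.08) and the 10 kb before it at 4.51 (2.97 to 7.11), a quotient of 0.768 (0.426 to 1.37). Further downstream the ratio reached its lowest, 0.596 (0.372 to 0.947), at 98866501 to 98876500, then rose to 4.64 (3.19 to 6.97) at 98906501 to 98916500. That block holds the downstream flank's highest-scored peak, 98912519 to 98914879, at 6.10 (2.92 to 14.7).

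In Rxra the last 10 kb stood at 4.27 (3.09 to 6.02), the next 10 kb at 2.20 (1.55 to 3.17) and the 10 kb after that at 2.15 (1.5 to 3.13). The quotient at the border was 1.94 (1.18 to 3.18). The other 8 blocks of 10 kb downstream held no peak and stood between 0.749 and 1.25. Upstream, 4 of 10 blocks held no peak, and the 10 kb next to the window stood at 3.28 (2.22 to 4.97). The highest-scored peaks of the flanks were 27482590 to 27484717 upstream, at 5.10 (2.61 to 11.1), and 27625944 to 27626933 downstream, at 8.37 (2.07 to 73.3). For the upstream flank of Rara it was 98778566 to 98780973, at 5.19 (2.46 to 12.6).

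The strand of the fragments played no part in the choice of the genes, and Rxra was uneven in it. In Rxra 702 of 1692 hMeDIP fragments lay on the plus strand, or 41.5% (39.1 to 43.9). Input fragments in the same window stood at 51.0% (45.7 to 56.2). In Rara the hMeDIP share was 51.0% (48.1 to 53.8) and the input share 47.6% (38.7 to 56.7). The 5 parts of Rara held 50.9%, 43.1%, 44.7%, 55.2% and 56.7%, the last with an interval above 50% (51.7 to 61.7). Its upstream flank stood at 54.5% (51.6 to 57.4) in hMeDIP and at 55.0% (49.45 to 60.4) in the input. Over all autosomes hMeDIP stood at 50.02%. The flanks of Rxra stood at 48.1% (45.6 to 50.5), an interval that includes 50% and does not overlap that of the gene.

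The imbalance ran through most of Rxra. From 5′ to 3′ its 5 parts held 34.8%, 43.2%, 39.6%, 36.3% and 50.5% plus strand fragments in hMeDIP, and the intervals of the first 4 lay below 50%. In the input the same parts held 47.7%, 55.3%, 63.0%, 45.1% and 42.3%. Only the third had an interval without 50% (50.9 to 74.0). Of the 24 Rxra peaks 18 had fewer plus than minus hMeDIP fragments, as did 48.0% of all listed peaks. The interval lay below 50% in 7, where 9.54% of all listed peaks did so, and above it in 1, where 9.56% did so. That 1 was the peak at 27614460 to 27616069 with 38 plus and 15 minus. At 27583556 to 27587216 there were 30 plus and 72 minus. Listed peaks were not matched to the Rxra peaks by fragment count, on which the width of such an interval depends. Median peak width was 1609 bp in Rxra and 1152 bp over the list. Single peaks of Rara were skewed too, but in both directions, 2 below and 2 above. The peak at 98817189 to 98818622 held 38 plus and 10 minus fragments, and that at 98792200 to 98793513 held 10 and 29.

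Such a share was uncommon but not unique among windows of this size. Of 17589 autosomal windows of the Rxra size with at least 200 hMeDIP fragments, 439 (2.5%) lay as far from 50%. These windows were not matched to the 1692 hMeDIP fragments of Rxra. Windows with fewer fragments vary more by counting, so 2.5% is not a share among windows of like depth. The hMeDIP shares of these windows varied with an SD of 3.76 points, where counting alone gives 2.38. Input shares varied with an SD of 2.90 against 2.87. Taken by strand, Rxra stood at 4.03 (3.43 to 4.75) in minus fragments and at 2.75 (2.33 to 3.25) in plus fragments, and Rara at 6.44 (4.99 to 8.44) and 7.36 (5.64 to 9.76). Why the strands differ was not tested.

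**Figure D5:**
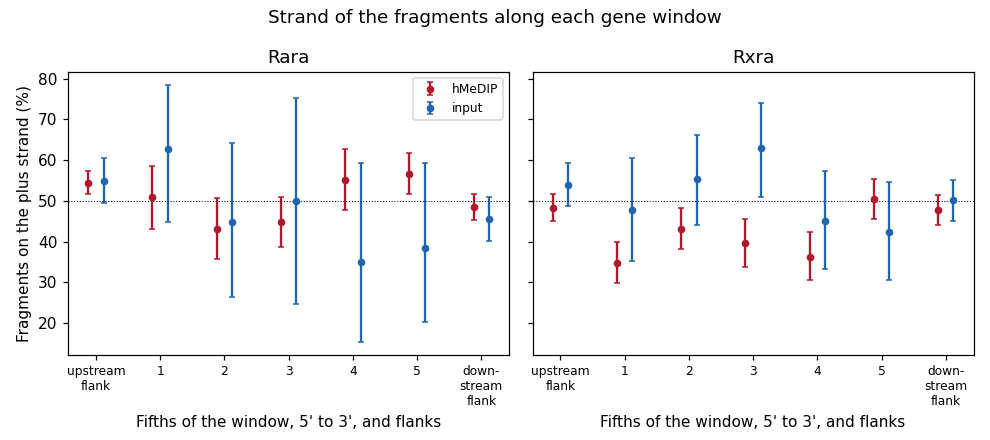
Share of fragments on the plus strand in 5 equal parts of each window and in the 100 kb flanks, for hMeDIP (red) and input (blue), with exact 95% binomial (Clopper-Pearson) intervals. In Rxra the first 4 parts lie at 34.8% to 43.2% in hMeDIP, below the dotted line at 50%.

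Positions with 2 or more reads follow the local density of fragments, which the choice of Rara used, so they are given as a description. They made up 3.11% (2.20 to 4.26) of the hMeDIP positions in Rara and 1.95% (1.35 to 2.73) in Rxra, against 1.33% over all autosomes. In the input they were 0 of 126 positions in Rara, which allows a share of up to 2.38% by the floor of 3 counts, and 0.274% in Rxra. In the hMeDIP library of Rara they were 5.06% in the last of the 5 parts, 3.39% inside peaks and 0 of 98 outside peaks, which allows up to 3.06%. No position in Rara held more than 2 reads and none in Rxra more than 3. Weighting by reads left the ratios at 7.01 and 3.39.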

How the data were processed

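The deposited files are a position list for each library and a peak list for hMeDIP. Reads were processed with CASAVA and Bowtie 1.0.0 on the build mm9, per the submitters' processing notes. MACS called the peaks, per the file headers, and neither its version nor its control or threshold is given in the sources used here. Each line of the deposited position lists gives a 350 bp stretch, a strand and a count of reads at that position, read here as 1 fragment, without weighting. The score of each peak is the authors' and is used only to rank and describe peaks.

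Fragments were assigned by midpoint. Intervals of ratios are exact conditional binomial (Clopper-Pearson), and those of quotients of ratios are the exact conditional interval of the odds ratio, in which library scaling cancels. The calculation was tested on simulated data. Background windows needed at least 50 input fragments, or 20 on each side of the middle. With 1 library per group there is no test. Python 3.11.15, NumPy 2.4.6 and SciPy 1.17.1 were used.

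The members, lists and tests were chosen with earlier results of these data known, and the strand and read measures after their values were seen. Named by rule were the 3 highest-scored peaks and the widest of each window, the 3 highest and 3 lowest 2 kb steps, the start step, the longest stretch without a peak and the top peak of each flank; other regions were chosen after their values were seen. The window limits come from the request and were not checked against an mm9 annotation. RefSeq gives gene lengths of 47.1 kb and 86.9 kb on GRCm38.p6, from which nothing was converted. Other genes of the retinoic acid pathway were not analysed here, since no mm9 annotation was used. Alternatives covered weighting, fragment length, strand, peaks, flank size, cuts, step size, pseudocount, threshold and scaling.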

Additional observations from a re-analysis of the deposited data

Results flagged for a closer look

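The share of hMeDIP fragments on the plus strand in Rxra, 41.5%, is listed because strand was not part of the main comparison and the share lay outside the input's interval of 45.7% to 56.2% in the same window. Its interval of 39.1% to 43.9% covers counting error only. It was 38.2% on the 5′ side of the middle and 44.8% on the 3′ side.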

How the results depend on the processing

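Of 70 alternatives over 10 results, 50 stayed within the main interval (for shares, within 1.5 times), 20 moved and 0 reversed. A reversal could not be recorded for shares, nor for the Rxra 3′ over 5′ quotient, whose main interval includes 1. That quotient fell on both sides of 1 among its alternatives. Fragments outside peaks only gave window ratios of 1.83 (Rara) and 1.48 (Rxra), windows over flanks of 1.22 and 1.25, and a Rara 3′ over 5′ quotient of 3.48. Scaling to fragments outside peaks raised the window ratios to 9.09 and 4.46. Plus and minus strand fragments gave 2.75 and 4.03 for Rxra, 3′ over 5′ quotients of 2.74 and 1.15 for Rara and of 1.40 and 0.812 for Rxra, the last with intervals that include 1. The last against the first of 3 equal parts of Rara gave 2.66. Flanks of 50 kb gave 3.87 for Rara and 1.91 for Rxra, and for Rxra the upstream flank alone gave 1.90 and the downstream flank alone 2.64. A ratio of at least 4 left 29.5% of Rxra steps high. Without its highest-scored peak, an alternative chosen after seeing the data, the Rara ratio was 5.65. All 14 alternatives for the window ratios and 19 of 20 for windows over flanks kept an interval above 1; the exception was Rara outside peaks. The cause of these moves was not tested. No paired analysis was possible because each group has 1 library. A 2 kb step holds few input fragments, so single steps are imprecise.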
